A study of Mus musculus with 30 samples.

Results

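The 31 genes described here encode enzymes and regulators of cholesterol and fatty acid synthesis. They were taken by symbol from a list of that pathway, and all 31 were found among the 54232 gene IDs of the count tables. The study sequenced RNA from 30 preparations of pancreatic islets, the hormone-secreting cell clusters of the pancreas, from male wild-type C57BL/6N mice. The groups were mice given 1 mM cadmium chloride for 6 weeks (4 libraries) with their vehicle group (5 libraries), mice given 1 mM for 18 weeks (5 libraries) with theirs (6 libraries), and isolated islets kept for 96 hours with 0.5 uM cadmium chloride (5 libraries) or vehicle (5 libraries). All groups share the strain, sex and genotype, while the sources used here give neither the ages of the mice nor the route of dosing. Nothing in the labels says that the libraries of a group came from separate animals or cultures, so each p-value reflects how much these libraries scatter, in part perhaps for technical reasons.

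Cholesterol and fatty acids are both built from acetyl-CoA in the cytosol. The mevalonate steps join acetyl units into squalene, the later sterol steps close and trim the ring to cholesterol, and a separate branch carboxylates acetyl-CoA and extends it into fatty acids that desaturases then modify. Most of these genes are targets of SREBP transcription factors, which are held in the endoplasmic reticulum by Insig proteins when sterols are plentiful and are cut free in the Golgi when sterols run low. In beta cells, which make up most of a mouse islet, citrate exported from mitochondria feeds this synthesis, and cholesterol is a component of insulin granule membranes.

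Depth ranged from 9092759 to 58366797 counts per library, with 14751249 and 9092759 counts in vehicle libraries 4 and 6 at 18 weeks and 21573301 in cadmium library 5 at 18 weeks. The 8 beta cell markers, led by the insulin genes, held 12.6 to 24.6% of counts over the 30 libraries, as an islet preparation should. Transcripts of acinar cells, the enzyme-secreting cells around the islets, differed between groups. The 29 acinar markers held 3.52, 1.60, 9.34, 19.2 and 6.37% of counts in the 5 cadmium libraries at 18 weeks, against 0.682, 1.79, 0.744, 0.259, 0.653 and 0.886% in the 6 vehicle libraries. At 6 weeks they held 3.68, 5.01, 5.64 and 8.13% with cadmium and 3.69, 4.98, 3.34, 2.71 and 3.61% with vehicle. No culture library exceeded 0.0149%, and 3 of the 29 markers were at 0 in every culture library of either group, whereas none was at 0 throughout a group in vivo. The 10 duct markers held 0.0357 to 0.0667% with cadmium and 0.0251 to 0.0329% with vehicle at 18 weeks. Because these are bulk samples, a different number of cells of a type and a different amount of RNA per cell cannot be told apart.

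RefSeq gives a promoter window in GRCm38.p6 for 24 of the 31 genes. Windows ran from 250 bases before to 50 bases after a start site, and both strands were searched. The sterol element TCACNCCAC was in 1 of the 29 windows of these genes and in 1.24% of all 32851 windows, the CCAAT box (CCAAT) was in 22 of 29 and in 37.4%, and the GC box (GGGCGG) was in 22 of 29 and in 35.7%. By gene, a CCAAT box was found in 21 of 24, against 41.1% of all 27025 genes, and a GC box in 20 of 24, against 38.2%. Other spellings of the sterol element were not searched. The following are the 250 bases before the start site of Hmgcs1, the gene with a match to TCACNCCAC, at chr13:119690101-119690350 on the plus strand, and, for Tmem97, the gene called after 18 weeks of cadmium, the first 208 of those bases, at chr11:78550778-78550985 on the minus strand. The 42 bases nearest the Tmem97 start lie inside the gene as GENCODE annotates it and are left out. Capitals mark the sterol element and CCAAT boxes on either strand, which did not overlap each other.
Hmgcs1: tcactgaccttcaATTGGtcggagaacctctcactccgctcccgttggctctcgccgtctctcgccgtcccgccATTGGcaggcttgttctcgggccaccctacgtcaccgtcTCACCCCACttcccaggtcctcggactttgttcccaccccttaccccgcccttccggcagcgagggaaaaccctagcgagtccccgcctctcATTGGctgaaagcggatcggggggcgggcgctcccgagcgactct
Tmem97: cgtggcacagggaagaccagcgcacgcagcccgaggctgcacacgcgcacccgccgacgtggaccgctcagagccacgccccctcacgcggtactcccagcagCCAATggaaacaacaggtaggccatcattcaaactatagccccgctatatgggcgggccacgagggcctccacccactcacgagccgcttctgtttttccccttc
The Hmgcs1 element reads TCACCCCAC on the gene's strand and begins 137 bases before the start site. Tmem97 has CCAAT boxes at 147 and, in the stretch left out, 40 bases before its start and no match to TCACNCCAC in its window. These matches are letters in a window and were not tested as binding sites.

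Levels are given as CPM, read counts scaled to a common library size, and comparisons between genes are made per kilobase of exon. Acly, the citrate lyase that supplies cytosolic acetyl-CoA, stood far above every other member. It averaged 404 ± 19.3 CPM per kilobase with cadmium and 409 ± 19.99 with vehicle at 6 weeks (SD, n = 4 and 5). Over the 30 libraries its reads were 51.2 to 64.3% of all reads on the 31 genes. Next in the 6 week vehicle group came Scd2, a stearoyl-CoA desaturase, at 49.8 ± 3.87 CPM per kilobase, Insig1 at 31.03 ± 3.03 and Srebf1 at 30.3 ± 1.56 (SD, n = 5), and Insig1 and Srebf1 lay within each other's spread. The lowest were Acaca at 1.55 ± 0.0493, Fdps at 0.874 ± 0.0781 and Idi1 at 0.155 ± 0.0215 CPM per kilobase in the same group. In the 18 week vehicle group Insig1 was second at 61.3 ± 8.87 and Scd2 came after it at 27.8 ± 2.89 CPM per kilobase (SD, n = 6). Tmem97 held rank 3 of 31 in the 18 week cadmium group and rank 12 in its vehicle group. Its rank lay between 12 and 16 in the other groups.

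Transcript levels of most of these genes lay close together in cadmium and vehicle libraries in all 3 settings. With the quasi-likelihood test of edgeR and Benjamini-Hochberg adjusted p under 0.05, 0 of 31 genes passed at 6 weeks, where 0% of all 18080 genes tested were higher and 0% lower. The lowest adjusted p of a member there was 0.919, DESeq2 also called 0 of the 31, and 1 member and 923 genes in all had an unadjusted p under 0.05. After 18 weeks 1 gene, Tmem97, was higher and 0 were lower, against 0.344% and 0.0143% of 20911 genes tested. DESeq2 called 3 members there, Tmem97, Scd1 and Fads2, among 550 genes higher and 215 lower, and 5 members and 3804 genes had an unadjusted p under 0.05. In culture 0 of 31 passed, where 0.00597% of 16743 genes were higher and 0% lower, DESeq2 called 0 of the 31 there, and 3 members and 920 genes had an unadjusted p under 0.05. The median log2 fold change of the 31 genes was -0.017 at 6 weeks, 0.076 at 18 weeks and 0.015 in culture, and that of all genes tested was -0.0019, 0.00029 and -0.0021. The median standard error of a member was 0.077, 0.11 and 0.052 log2 units in these settings. The 95% interval of the log2 fold change, unadjusted for the number of genes, lay within a 1.5-fold change either way for 28 of 31 genes at 6 weeks, 25 at 18 weeks and 30 in culture. Reaching past it were Idi1, Tmem97 and Scd1 at 6 weeks, Mvd, Fdps, Tm7sf2, Tmem97, Scd1 and Fads2 at 18 weeks, and Scd1 in culture.

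**Figure D1:**
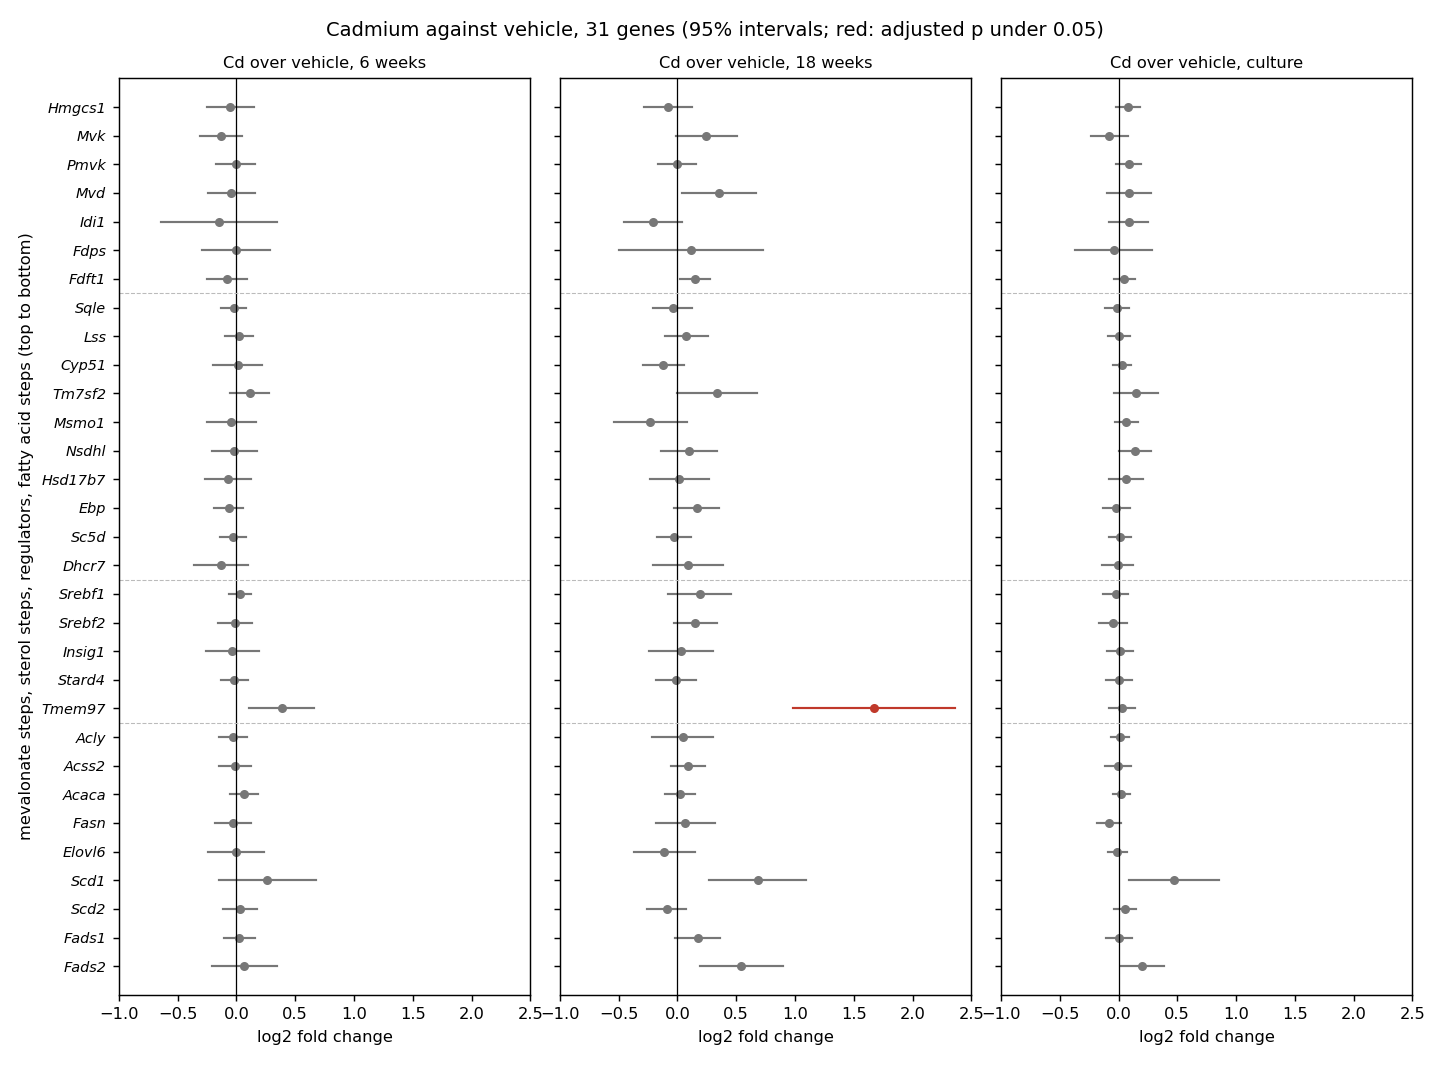
Log2 fold change (x axis) of each of the 31 genes (y axis, grouped by role with dashed lines between groups) for cadmium over vehicle at 6 weeks, at 18 weeks and in culture. Points are edgeR estimates and lines their 95% intervals, and the red point, Tmem97 at 18 weeks with a value of 1.67, is the only gene of the 31 with an adjusted p under 0.05 in these 3 fits.

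Library by library, at 6 weeks 0 of 31 genes had every cadmium library above every vehicle library and 0 had every one below, against 0.924% and 0.608% of all genes tested. After 18 weeks 1 of 31 had every cadmium library above (0.937% of all genes) and 0 had every one below (0.588%). In culture the counts were 0 and 0, against 0.334% and 0.496%. The log2 fold change pointed the same way in all 3 settings for 9 genes, up for Acaca, Fads1, Fads2, Lss, Scd1, Tm7sf2 and Tmem97 and down for Elovl6 and Sqle, while the other 22 differed in sign between settings.

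The 7 mevalonate genes, which lead from acetyl units to squalene, had 0 calls in each cadmium setting with edgeR on the groups compared. All 7 had log2 fold changes below zero at 6 weeks, from -0.15 to -0.0034, whereas 4 of 7 were positive at 18 weeks and 5 of 7 in culture. Mvk, which phosphorylates mevalonate, had 10.5, 9.81, 8.68 and 8.67 CPM with cadmium and 10.7, 10.98, 10.4, 9.82 and 9.51 CPM with vehicle at 6 weeks. Cadmium libraries 3 and 4 lay below all vehicle libraries and the other two lay among them, and the log2 fold change was -0.13 ± 0.079 (edgeR adjusted p = 0.919). Fdft1, squalene synthase, which joins farnesyl units, had 53.4, 48.8, 49.2, 46.9 and 46.8 CPM with cadmium and 44.2, 45.04, 46.6, 45.5, 42.8 and 41.5 CPM with vehicle at 18 weeks. All 5 cadmium libraries were above all 6 vehicle libraries, by a small margin, at a log2 fold change of 0.15 ± 0.059 that did not pass (edgeR adjusted p = 0.213). This gene was named because it is the one whose groups do not overlap, and 18.3% of its exon bases overlap those of Ctsb on the other strand. Mvd, which decarboxylates mevalonate pyrophosphate, had 5.42, 6.13, 7.66, 7.09 and 5.91 CPM with cadmium and 3.97 to 6.35 with a median of 4.90 CPM with vehicle at 18 weeks, overlapping groups with a log2 fold change of 0.35 ± 0.15 (adjusted p = 0.232, edgeR). With all 30 libraries in the fit Mvd passed, at 0.35 log2 units (edgeR adjusted p = 0.0340). Hmgcs1, the HMG-CoA synthase at the entry to the pathway, stood at 63.2 ± 9.35 CPM with cadmium and 66.95 ± 5.35 CPM with vehicle at 18 weeks (SD, n = 5 and 6), and its log2 fold changes were -0.051 at 6 weeks, -0.081 at 18 weeks and 0.082 in culture.

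Among the 10 genes of the sterol steps, 0 passed in any cadmium setting with edgeR, with log2 fold changes of -0.13 to 0.11 at 6 weeks, -0.23 to 0.34 at 18 weeks and -0.018 to 0.15 in culture. Tm7sf2, a sterol reductase, had 14.8, 13.2, 14.1 and 15.1 CPM with cadmium and 12.5, 11.9, 14.8, 14.01 and 12.5 CPM with vehicle at 6 weeks. The groups overlapped, cadmium library 4 alone being above all vehicle libraries, and the log2 fold change was 0.11 ± 0.075 (edgeR adjusted p = 0.919). In the other settings its log2 fold change was 0.34 ± 0.16 (18 weeks) and 0.15 ± 0.088 (culture), neither of which passed. Nsdhl, a dehydrogenase that helps to strip methyl groups from the sterol ring, had 12.7, 13.3, 12.6, 12.9 and 11.5 CPM with cadmium and 11.2, 12.3, 11.6, 11.8 and 10.4 CPM with vehicle in culture. Here 4 of 5 cadmium libraries were above all vehicle libraries, at a log2 fold change of 0.14 ± 0.063 (adjusted p = 0.888, edgeR). Sqle, squalene epoxidase, an oxygen-using step that limits flux into sterols, stayed within its spread, at 138 ± 2.82 and 139 ± 9.14 CPM (cadmium and vehicle, 6 weeks; SD, n = 4 and 5), 113 ± 9.98 and 117 ± 10.02 CPM (18 weeks; n = 5 and 6) and 146 ± 9.03 and 148 ± 8.18 CPM (culture; n = 5 each). Its 95% interval was -0.13 to 0.086, -0.21 to 0.13 and -0.11 to 0.089 log2 units in that order of settings.

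The SREBP genes themselves and their Insig1 brake did not pass with edgeR in any cadmium comparison. Srebf2, whose product mainly drives cholesterol genes, stood at 72.6 ± 3.41 CPM with cadmium and 65.6 ± 8.03 CPM with vehicle at 18 weeks (SD, n = 5 and 6), and its log2 fold changes were -0.0084 ± 0.065 at 6 weeks, 0.15 ± 0.085 at 18 weeks and -0.047 ± 0.054 in culture. Srebf1, whose product mainly drives fatty acid genes, had 0.031 ± 0.044, 0.19 ± 0.12 and -0.025 ± 0.048 log2 units in the same order. Insig1, itself a classic SREBP target, had -0.035 ± 0.10, 0.029 ± 0.13 and 0.015 ± 0.052. Stard4, a carrier of cholesterol between membranes, stayed between -0.017 and 0.0032 log2 units over the 3 settings.

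Tmem97 (ENSMUSG00000037278, chr11:78541817-78550777 on the minus strand, mm10) was the exception. It encodes a sterol-binding membrane protein, named in screens of human cells as a regulator of cholesterol levels. At 18 weeks it had 29.3, 16.8, 46.1, 93.6 and 33.6 CPM in the 5 cadmium libraries, in the order 1 to 5, and 14.2, 17.5, 13.02, 11.5, 13.9 and 11.8 CPM in vehicle libraries 1 to 6. Of the 5 cadmium libraries 4 were above all vehicle libraries, and library 2 lay just under the highest vehicle library. The log2 fold change was 1.67 ± 0.32, a 3.19-fold difference (edgeR adjusted p = 0.0435). The order of the cadmium libraries by Tmem97 was also their order by acinar marker share, from library 2 at 1.60% to library 4 at 19.2%. The vehicle library with the most Tmem97, number 2, had the largest vehicle share, 1.79%. The other vehicle libraries did not keep this order. Library 6, at 0.886%, had 11.8 CPM, and library 5, at 0.653%, had 13.9 CPM. The part of the duct markers, also higher in this cadmium group, was not tested. With the log2 acinar share as a covariate the log2 fold change was -0.068 (edgeR adjusted p = 0.993), and 0 of all genes passed in that fit. The share was 1.60 to 19.2% with cadmium and 0.259 to 1.79% with vehicle. It is thus nearly split by group, and acinar share and cadmium cannot be told apart here. Over the 19 alternatives computed the adjusted p of Tmem97 ranged from 6.17e-05 to 0.993. Without cadmium library 4 the log2 fold change was 1.19 (edgeR adjusted p = 0.0754). Of all genes 2 were then higher and 0 lower, against 72 and 3 with every library. The call was also lost without cadmium library 3 or vehicle library 1, 3, 4, 5 or 6. The log2 fold change there was 1.63 to 1.68 (edgeR adjusted p = 0.0870 to 0.146), and in each of those fits 0 of all genes passed in either direction.

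At 6 weeks Tmem97 had 11.2, 12.9, 16.5 and 16.996 CPM with cadmium and 11.3, 12.2, 9.90, 9.99 and 11.5 CPM with vehicle. Cadmium libraries 2, 3 and 4 were above all vehicle libraries, at a log2 fold change of 0.39 ± 0.12 that did not pass (edgeR adjusted p = 0.919). Libraries 1 to 4 ran in the same order by Tmem97 and by acinar share here too. In culture Tmem97 had 14.99, 14.98, 15.7, 14.9 and 13.7 CPM with cadmium and 14.5, 14.2, 15.4, 14.3 and 14.6 CPM with vehicle. These groups overlapped, with a log2 fold change of 0.028 ± 0.053 and a 95% interval of -0.084 to 0.14. The vehicle groups did not run in the order of their acinar shares. Vehicle libraries in culture, at 0.00797 to 0.0149% acinar share, had 14.2 to 15.4 CPM of Tmem97. Those at 6 weeks, at 2.71 to 4.98%, had 9.90 to 12.2 CPM. Those at 18 weeks, at 0.259 to 1.79%, had 11.5 to 17.5 CPM. The settings differ in acinar share and in other ways, and these cannot be told apart.

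**Figure D2:**
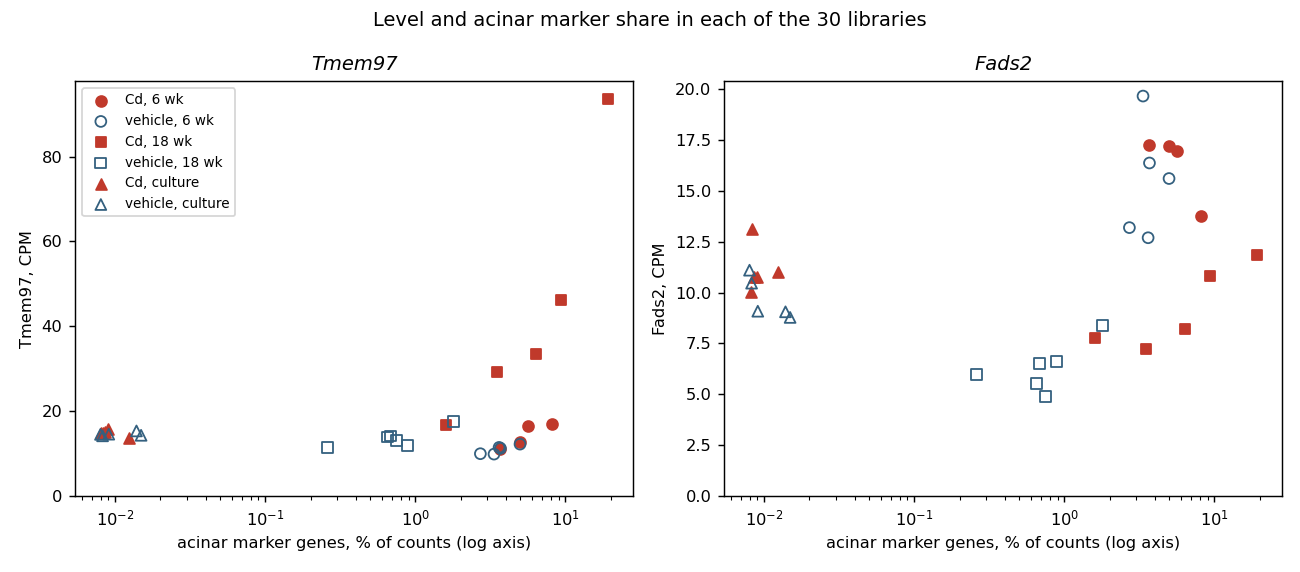
CPM of Tmem97 (left) and Fads2 (right) on the y axes against the percent of counts on 29 acinar marker genes (log x axis) in each of the 30 libraries. Filled red symbols are cadmium and open blue symbols vehicle, with circles for 6 weeks, squares for 18 weeks and triangles for culture. The cadmium libraries at 18 weeks run from 16.8 CPM of Tmem97 at 1.60% to 93.6 CPM at 19.2%.

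The 9 genes of fatty acid synthesis and modification had 0 calls in the 3 cadmium comparisons with edgeR on the groups compared, with 7 of 9 on the higher side at 18 weeks and 6 of 9 in culture. Scd1 (ENSMUSG00000037071, chr19:44394455-44407879 on the minus strand), the desaturase that puts the first double bond into saturated fatty acids, had the largest log2 fold change of the 9 in each setting. At 18 weeks it had 7.55, 9.12, 11.3, 14.7 and 8.07 CPM with cadmium and 6.58, 8.01, 7.73, 5.89, 4.39 and 5.13 CPM with vehicle. Cadmium libraries 2 to 5 were above all vehicle libraries and library 1 among them, at a log2 fold change of 0.68 ± 0.19 (adjusted p = 0.130, edgeR), or 0.097 with the acinar share as a covariate (adjusted p = 0.991; 0.0275 to 0.991 over 19 alternatives, passing with DESeq2 and with all 30 libraries in the fit). Acinar share and cadmium cannot be told apart at 18 weeks, and 0 of all genes passed in the covariate fit. In culture Scd1 had 11.03, 12.5, 9.21, 11.96 and 16.3 CPM with cadmium and 6.36, 11.9, 6.71, 7.53 and 11.6 CPM with vehicle. Cadmium libraries 2, 4 and 5 were above all vehicle libraries, vehicle libraries 2 and 5 lay among the cadmium libraries, and the log2 fold change was 0.47 ± 0.18 (edgeR adjusted p = 0.888). The 10 stellate cell and fibroblast markers held 0.0513 to 0.128% of counts in these cadmium libraries and 0.0355 to 0.0833% in the vehicle libraries, and their part in the result was not tested. At 6 weeks the log2 fold change of Scd1 was 0.26 ± 0.19 and did not pass, with 11.1 to 17.2 CPM in the cadmium and 8.46 to 15.2 CPM in the vehicle libraries.

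Fads2 (ENSMUSG00000024665, chr19:10062765-10101746 on the minus strand), the desaturase that opens the conversion of essential fatty acids to longer polyunsaturated ones, had 7.22, 7.77, 10.8, 11.8 and 8.21 CPM with cadmium and 6.50, 8.38, 4.89, 5.96, 5.53 and 6.59 CPM with vehicle at 18 weeks. Cadmium libraries 3 and 4 were above all vehicle libraries, at a log2 fold change of 0.54 ± 0.16 (adjusted p = 0.146, edgeR), or -0.028 with the acinar share as a covariate (adjusted p = 0.997; 0.0125 to 0.997 over 19 alternatives, passing in those same fits as Scd1). The limit given for Scd1 holds for this covariate fit too. In culture Fads2 had 10.8, 13.1, 10.8, 10.01 and 10.99 CPM with cadmium and 11.1, 10.5, 9.05, 8.78 and 9.08 CPM with vehicle. Cadmium library 2 was above all vehicle libraries and the others overlapped them, at a log2 fold change of 0.20 ± 0.087 (adjusted p = 0.888, edgeR). Adipocytes are rich in these enzymes, so their markers are given here. The 12 adipocyte markers held 0.0158 to 0.0189% of counts with cadmium and 0.0148 to 0.0220% with vehicle at 18 weeks, and 0.0435 to 0.0486% with cadmium and 0.0417 to 0.0503% with vehicle in culture. Lpl, which beta cells also express, made most of that sum, Lep and Adrb3 were at 0 in every library in vivo, and Adipoq did not exceed 0.0846 CPM in any library.

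The bulk enzymes of the fatty acid branch had differences near zero, none of which passed. Acly had -0.026 ± 0.054, 0.043 ± 0.12 and 0.013 ± 0.036 log2 units with cadmium at 6 weeks, at 18 weeks and in culture. Acaca, the carboxylase that commits acetyl-CoA to fatty acids, had 0.065 ± 0.055, 0.021 ± 0.06 and 0.023 ± 0.034, and Fasn, the fatty acid synthase, -0.027 ± 0.069, 0.067 ± 0.12 and -0.08 ± 0.047. Elovl6, which lengthens palmitate, had -0.0069, -0.11 and -0.01, and Acss2, which activates acetate, -0.011, 0.089 and -0.0027.

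**Figure D3:**
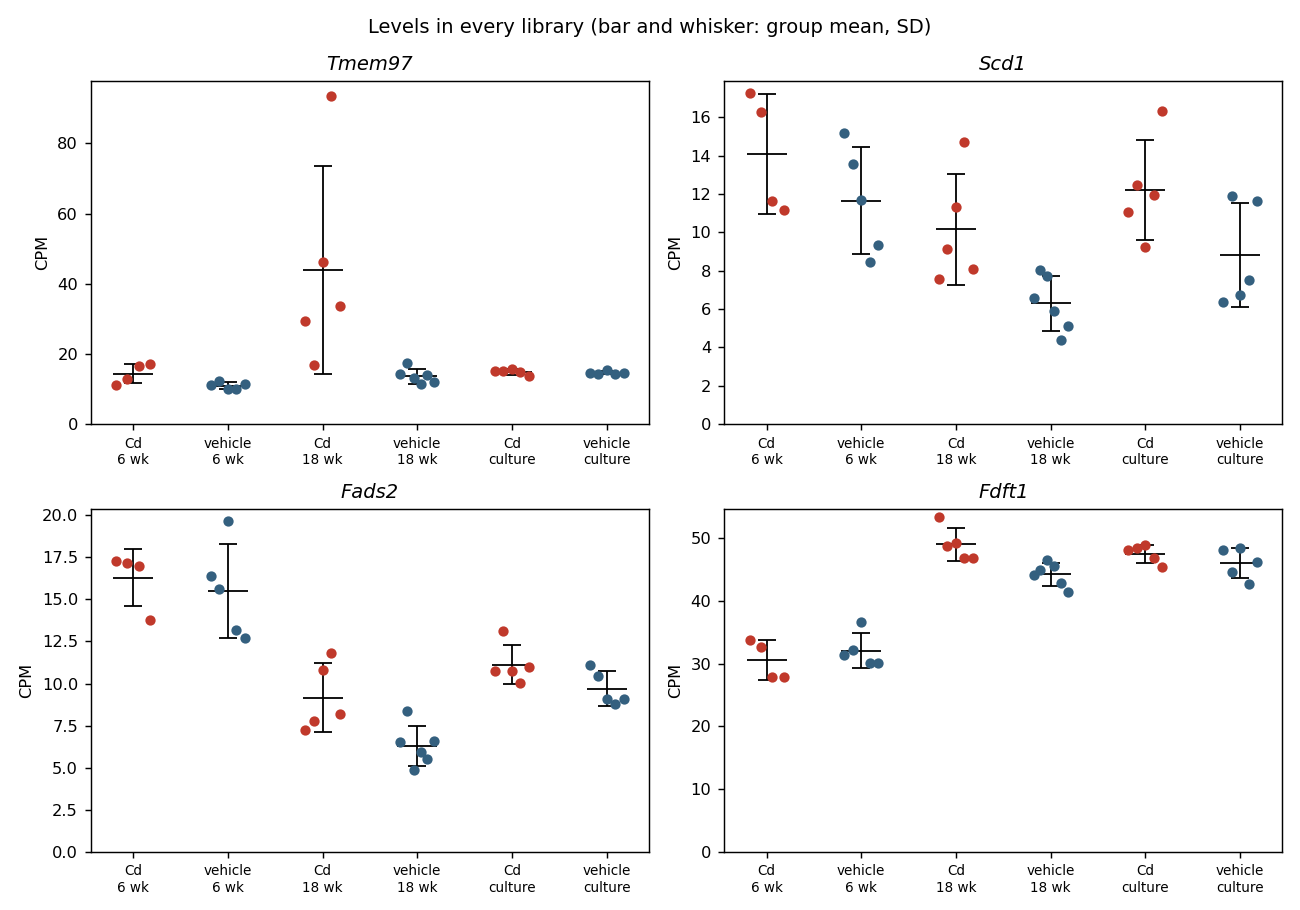
CPM (y axes) of Tmem97, Scd1, Fads2 and Fdft1 in every library of the 6 groups (x axes), with cadmium in red and vehicle in blue. Points are libraries, and bars and whiskers are group means and SD. Tmem97 averaged 43.9 ± 29.7 CPM with cadmium and 13.7 ± 2.16 CPM with vehicle at 18 weeks, and Fdft1 is the gene whose 18 week groups do not overlap.

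Whether the cadmium effect differed between settings was tested as a contrast in 1 edgeR fit of all 30 libraries. For the 18 week minus the 6 week effect 0 of 31 genes passed, against 1.68% of 22721 genes tested, and 6 members had an unadjusted p under 0.05 (4838 genes in all). Tmem97 came nearest, at 1.27 ± 0.35 log2 units (adjusted p = 0.0544), and passed with DESeq2 (adjusted p = 0.0197). The culture minus the 6 week effect passed for 0 of 31 genes, against 0% of all genes, with 0 members and 760 genes at an unadjusted p under 0.05. For culture minus 18 weeks 0 of 31 passed, against 0.0176% of all genes, with 2 members and 2995 genes at an unadjusted p under 0.05, and Tmem97 stood at -1.64 ± 0.34 (adjusted p = 0.0857; 0.00427 with DESeq2). These contrasts share groups with each other and with the separate comparisons.

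Many more of the 31 genes passed between vehicle groups than between cadmium and vehicle. These groups differ in duration or culture, in the age of the mice as far as it follows from duration, in acinar share, in other cell type markers and in sequencing depth, and these cannot be told apart. The labels do not say whether the settings were prepared or sequenced together, and a difference of that kind cannot be told apart either. The 6 week vehicle libraries had 25788 to 26645 genes with a count. At 18 weeks vehicle libraries 1, 2, 3 and 5 had 28414 to 29897, and the shallower libraries 4 and 6 had 25619 and 23768. Beta cell markers held 13.5 to 19.0% of counts at 18 weeks and 15.6 to 16.3% in culture, against 22.5 to 24.6% at 6 weeks. The 10 endothelial markers held 0.0450 to 0.0548% at 18 weeks and 0.00546 to 0.00981% in culture, against 0.0583 to 0.0739% at 6 weeks, and the 14 macrophage markers 0.0250 to 0.0310% and 0.0492 to 0.0566%, against 0.0475 to 0.0913%. At 18 weeks against 6 weeks 7 of 31 genes were higher and 17 lower, where 35.9% of 20551 genes tested were higher and 35.9% lower. In culture against 6 weeks 8 were higher and 14 lower (33% and 34.8% of 17605 genes), and in culture against 18 weeks 10 were higher and 6 lower (30.6% and 36.6% of 18449 genes). The median log2 fold change of the 31 genes was -0.35, -0.19 and 0.10 in these 3 comparisons, and that of all genes 0.00027, -0.0043 and -0.055. With DESeq2's own scaling and gene filter the median of all genes moved to 0.33, 0.14 and -0.28, and 11, 11 and 20 of the 31 genes were on the higher side, against 11, 11 and 19 with edgeR. The ranges of the acinar share do not overlap between the 3 vehicle groups, and with its log2 as a covariate 6 of the 31 genes were higher and 11 lower at 18 weeks against 6 weeks, where 4800 and 4225 of all genes were. In culture against 6 weeks 0 passed in either direction (105 and 2 of all genes), and in culture against 18 weeks 0 were higher and 1 lower (539 and 697 of all genes). The log2 fold changes did not all shrink in that fit: for culture against 6 weeks they were 4.16 for Idi1, 1.03 for Pmvk, -1.43 for Srebf1 and -1.13 for Fasn.

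**Figure D4:**
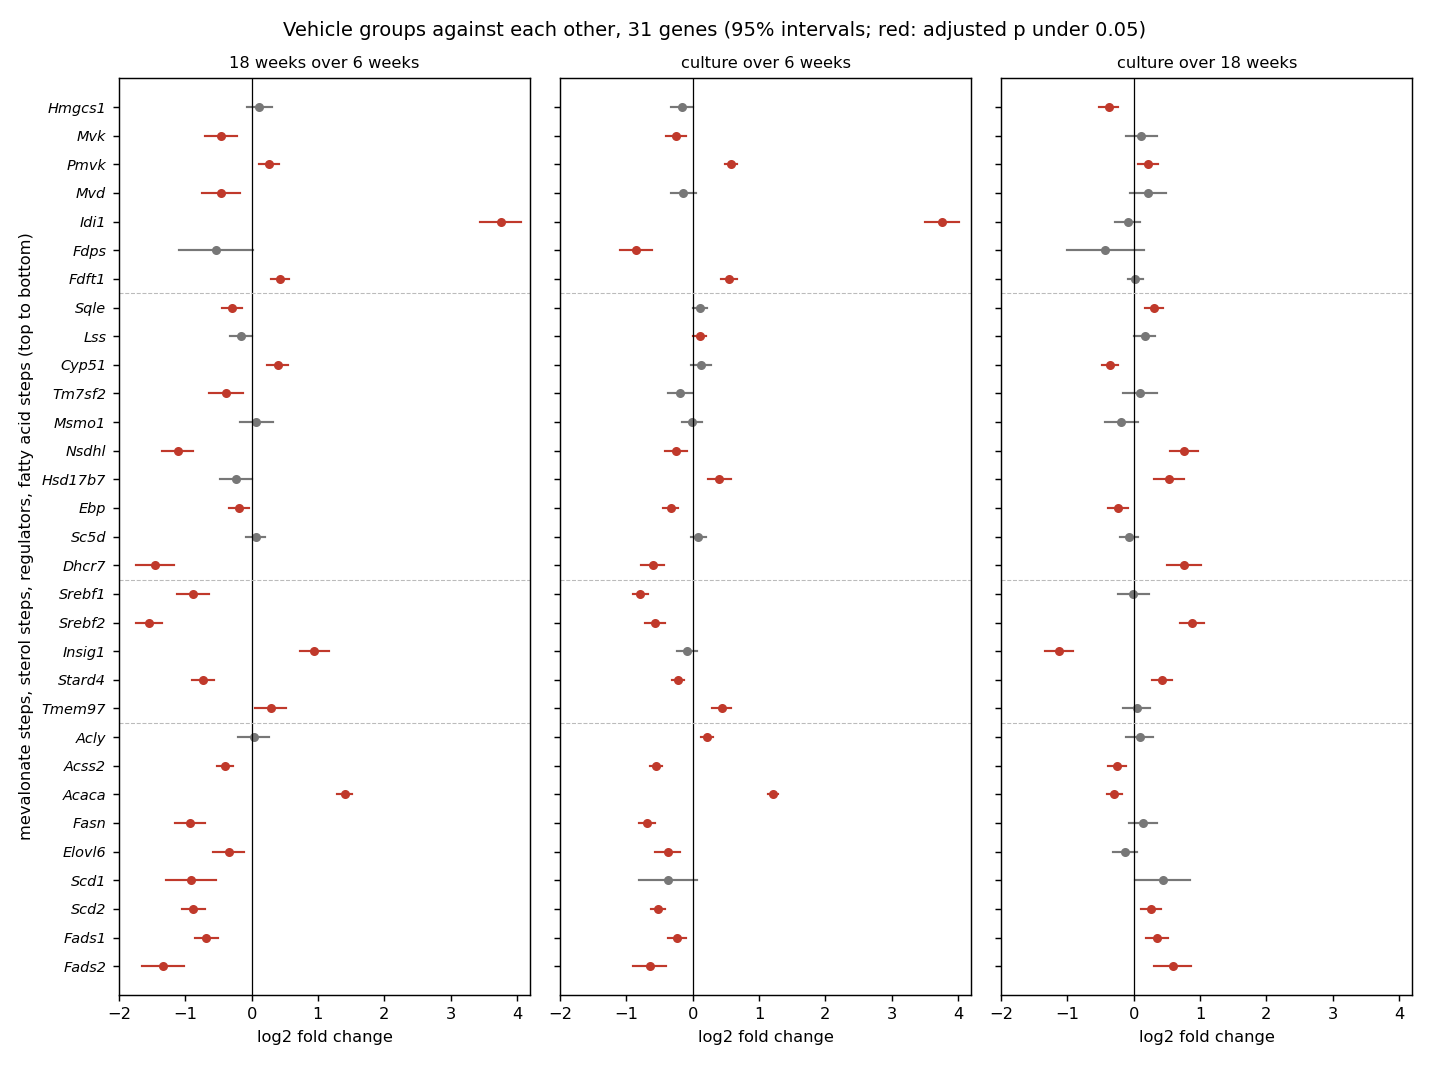
Log2 fold change (x axis) of each of the 31 genes (y axis, grouped by role) between vehicle groups, 18 weeks over 6 weeks, culture over 6 weeks and culture over 18 weeks. Points are edgeR estimates, lines are 95% intervals and red marks an adjusted p under 0.05. Idi1 stands at 3.75 and 3.76 in the left and middle panels.

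Idi1 (ENSMUSG00000058258, chr13:8885501-8892451 on the plus strand), the isomerase that makes dimethylallyl pyrophosphate, had the largest difference. It had 6.51 to 8.57 with a median of 7.54 CPM at 18 weeks and 7.33, 7.40, 7.71, 6.76 and 7.01 CPM in culture, against 0.468, 0.591, 0.551, 0.473 and 0.641 CPM at 6 weeks. The 6 week cadmium libraries were as low, at 0.661, 0.511, 0.463 and 0.338 CPM, and every library of the other settings was at 5.72 CPM or more. The log2 fold change was 3.75 ± 0.14 for 18 weeks (edgeR adjusted p = 1.57e-11) and 3.76 ± 0.12 for culture against 6 weeks (edgeR adjusted p = 9.70e-12). The 6 week values rest on 16 to 31 reads per library, and 9.22% of the exon bases of Idi1 overlap an annotated gene on the other strand. Other mevalonate genes differed by less. Pmvk rose by 0.26 ± 0.073 and 0.58 ± 0.043 log2 units at 18 weeks and in culture, with 24.2, 25.05, 26.9, 26.004 and 27.4 CPM in culture against 17.4, 17.8, 17.6, 17.9 and 17.9 CPM at 6 weeks, groups that do not overlap (edgeR adjusted p = 9.44e-08). Mvk fell, at -0.47 ± 0.11 and -0.25 ± 0.068, and Mvd at -0.46 ± 0.13 for 18 weeks.

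Acaca also took a large step up, both at 18 weeks and in culture. It had 66.3 to 75.2 with a median of 72.8 CPM at 18 weeks and 59.6, 60.3, 59.6, 60.8 and 60.3 CPM in culture, against 27.7, 25.8, 26.97, 26.4 and 25.6 CPM at 6 weeks. The 6 week libraries did not overlap the others, and the log2 fold change was 1.40 ± 0.055 at 18 weeks (edgeR adjusted p = 2.09e-11) and 1.21 ± 0.033 in culture (edgeR adjusted p = 2.21e-12), with -0.29 ± 0.05 for culture against 18 weeks (edgeR adjusted p = 1.17e-04; 0.055 with the acinar share as a covariate). Fasn, the next enzyme, went the other way. It had 98.2 to 155 with a median of 130.4 CPM at 18 weeks and 155, 154, 151, 136 and 137 CPM in culture, against 236, 239.9, 269, 228 and 233 CPM at 6 weeks, with every library at 18 weeks and in culture below every 6 week library. Its log2 fold change was -0.93 ± 0.10 at 18 weeks and -0.69 ± 0.055 in culture (edgeR adjusted p = 1.53e-06 and 1.76e-07). Elovl6, Scd2, Fads1 and Fads2 also fell in both, Scd2 to 132 to 178 with a median of 150.1 CPM at 18 weeks against 261, 280.0, 304, 268 and 248 CPM at 6 weeks (log2 fold change -0.88 ± 0.084, edgeR adjusted p = 2.60e-07). Acss2 fell to 29.6, 26.9, 26.7, 28.9 and 27.5 CPM in culture, against 40.3, 42.1, 44.3, 41.7 and 40.5 CPM at 6 weeks, at -0.55 ± 0.042 log2 units (edgeR adjusted p = 1.14e-07).

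Both SREBP genes were lower at 18 weeks and in culture than at 6 weeks. Srebf2 had 54.7 to 78.3 with a median of 64.97 CPM at 18 weeks and 131, 132, 129, 118 and 109 CPM in culture, against 201, 199, 199, 171 and 167 CPM at 6 weeks. The 3 groups did not overlap, and the log2 fold change was -1.55 ± 0.091 at 18 weeks and -0.57 ± 0.069 in culture, with 0.88 ± 0.085 for culture against 18 weeks (edgeR adjusted p = 1.58e-09, 9.09e-06 and 2.81e-07). Srebf1 had 69.9 to 112 with a median of 99.8 CPM at 18 weeks and 104, 102, 95.8, 93.7 and 87.3 CPM in culture, against 173, 172, 175, 177 and 155 CPM at 6 weeks, at -0.88 ± 0.11 and -0.79 ± 0.052 log2 units (edgeR adjusted p = 4.76e-06 and 2.91e-08). Insig1 did not follow them. It had 136 to 208 with a median of 200.4 CPM at 18 weeks, against 88.6, 93.9, 112, 92.8 and 92.1 CPM at 6 weeks, above in every library, and 101, 87.1, 90.4, 81.3 and 84.3 CPM in culture. Its log2 fold change was 0.95 ± 0.10 at 18 weeks (edgeR adjusted p = 7.94e-07) and -1.13 ± 0.10 for culture against 18 weeks (edgeR adjusted p = 1.00e-07), and the difference of culture from 6 weeks did not pass, at -0.085 ± 0.069.

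In the sterol steps 5 of 10 genes fell at 18 weeks against 6 weeks and 1 rose, where 35.9% of all genes were lower and 35.9% higher. Dhcr7, the reductase of the last step to cholesterol, had 7.08 to 11.7 with a median of 11.1 CPM at 18 weeks and 18.1, 18.9, 17.1, 16.3 and 16.8 CPM in culture, against 28.5, 27.05, 31.7, 24.3 and 23.4 CPM at 6 weeks. Every library at 18 weeks was below every culture library and every culture library below every 6 week library, at -1.46 ± 0.14 log2 units for 18 weeks against 6 weeks and 0.76 ± 0.12 for culture against 18 weeks (edgeR adjusted p = 1.96e-07 and 5.86e-05). Nsdhl followed the same order, with 5.01 to 7.89 with a median of 6.52 CPM at 18 weeks and 11.2, 12.3, 11.6, 11.8 and 10.4 CPM in culture, against 15.8, 14.7, 13.6, 13.3 and 12.2 CPM at 6 weeks, the groups of culture and 6 weeks overlapping at 12.2 to 12.3 CPM. Its log2 fold change was -1.12 ± 0.11 at 18 weeks against 6 weeks and 0.76 ± 0.10 for culture against 18 weeks (edgeR adjusted p = 2.96e-07 and 6.99e-06). Cyp51, which removes a methyl group from lanosterol, was higher at 18 weeks, with 64.5 to 74.7 with a median of 70.2 CPM, against 52.2, 56.3, 60.2, 46.4 and 46.1 CPM at 6 weeks. It was lower in culture, with 57.4, 57.3, 58.1, 53.3 and 54.5 CPM (log2 fold change -0.36 ± 0.055 for culture against 18 weeks, edgeR adjusted p = 3.26e-05). Sc5d and Msmo1, a desaturase and a methyl oxidase of the same segment, passed in none of the 3 vehicle comparisons.

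**Figure D5:**
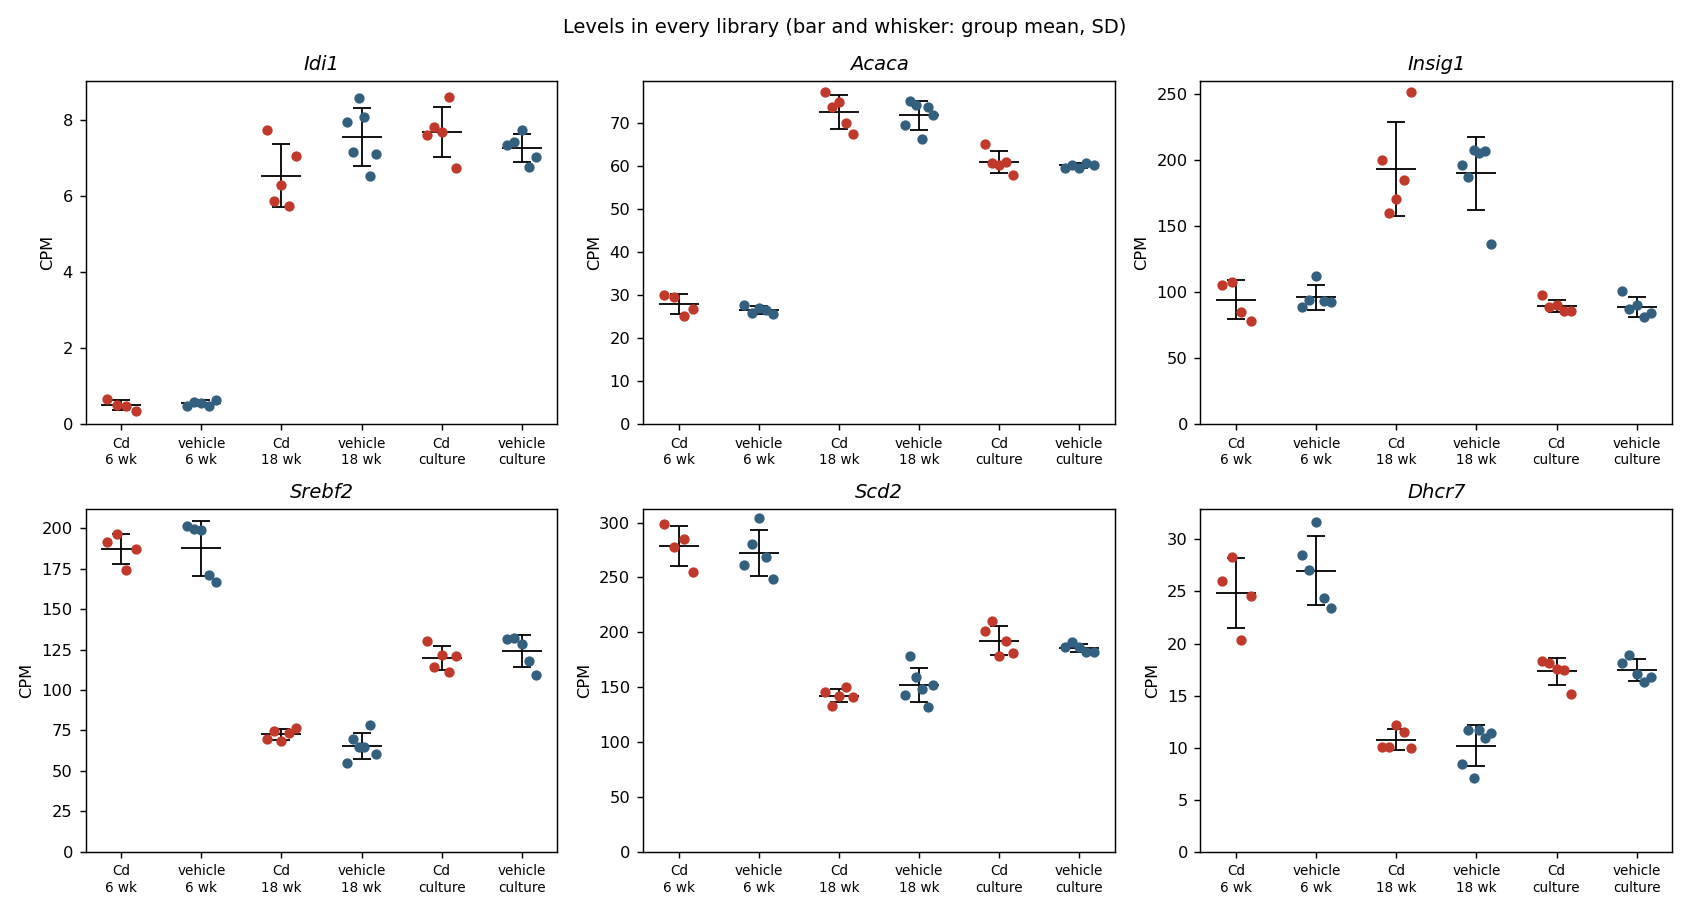
CPM (y axes) of Idi1, Acaca, Insig1, Srebf2, Scd2 and Dhcr7 in every library of the 6 groups (x axes), cadmium in red and vehicle in blue, with group means and SD. The ranges of cadmium and vehicle overlap within each setting. Idi1 stands at 0.338 to 0.661 CPM in the 9 libraries at 6 weeks, with 18 weeks and culture overlapping far above, while for Insig1 culture and 6 weeks overlap.

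The other 30 genes of the pathway that were followed (cofactors of SREBP, LXR and ChREBP factors, receptors, esterification enzymes and further enzymes) had 0 calls in the cadmium comparisons with edgeR. Of all genes tested, 0% were called at 6 weeks, 0.344% higher and 0.0143% lower at 18 weeks, and 0.00597% higher and 0% lower in culture. An unadjusted p under 0.05 was found for 0, 9 and 1 of the 30 at 6 weeks, at 18 weeks and in culture. Among all genes tested it was found for 923 of 18080, 3804 of 20911 and 920 of 16743. Every cadmium library was above every vehicle library for 1, 2 and 0 of the 30 (0.924%, 0.937% and 0.334% of all genes). Every one was below for 0 in each setting (0.608%, 0.588% and 0.496%). The 2 at 18 weeks were Acacb (3.62 to 10.3 against 1.10 to 2.98 CPM) and Mylip (10.1 to 12.8 against 8.30 to 9.60 CPM). The lowest adjusted p of the 30 there was 0.0881 (edgeR). In the vehicle groups 6 were higher and 16 lower at 18 weeks against 6 weeks (35.9% and 35.9% of all genes), 11 higher and 11 lower in culture against 6 weeks (33% and 34.8%), and 8 higher and 7 lower in culture against 18 weeks (30.6% and 36.6%). Scap, the SREBP escort, fell, at -0.80 ± 0.11 log2 units at 18 weeks and -0.47 ± 0.057 in culture (edgeR adjusted p = 9.45e-06 and 8.48e-06), and Mbtps2, a protease that frees SREBP, at -0.67 ± 0.063 at 18 weeks (adjusted p = 2.41e-07, edgeR). Mlxipl, which encodes the glucose-responsive factor ChREBP, fell, at -1.03 ± 0.092 at 18 weeks and was higher in culture than at 18 weeks by 1.04 ± 0.088 (edgeR adjusted p = 1.28e-07 and 7.83e-08). Nfyc, a subunit of the CCAAT-binding factor, rose at 18 weeks by 0.81 ± 0.07 (edgeR adjusted p = 9.41e-08) and was -0.44 ± 0.064 in culture against 18 weeks. Thrsp, a lipogenic protein, and Acacb, the mitochondrial acetyl-CoA carboxylase, were lower in culture than at 6 weeks, at -2.95 ± 0.21 and -2.67 ± 0.19 (edgeR adjusted p = 5.49e-08 and 7.46e-08), and than at 18 weeks, at -2.63 ± 0.19 and -1.43 ± 0.27. In the vehicle culture libraries Thrsp rests on 9 to 18 reads and Acacb on 13 to 28, and Acacb had as few as 9 in an 18 week vehicle library. Vldlr, a lipoprotein receptor, was higher in culture than at 6 weeks by 1.38 ± 0.09 and than at 18 weeks by 1.28 ± 0.083 (edgeR adjusted p = 2.46e-08 and 4.66e-09), and Me1, the malic enzyme that supplies NADPH, than at 18 weeks by 1.36 ± 0.11 (adjusted p = 4.91e-08, edgeR). Soat1, which esterifies cholesterol, and Acsl3, which activates fatty acids, were higher than at 6 weeks by 0.43 and 0.46 at 18 weeks and by 0.50 and 0.69 in culture.

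Within a group the libraries differed in ways that ran through many of the 31 genes. At 6 weeks cadmium library 1 was highest of the 4 for 17 genes, library 4 lowest for 15 and library 3 lowest for 13, while vehicle library 3 was highest of the 5 for 17 and library 5 lowest for 14. In culture cadmium library 5 was lowest of the 5 for 15 genes and vehicle library 4 for 12. The median coefficient of variation over the 31 genes was 9.13% with cadmium and 8.70% with vehicle at 6 weeks, 9.32% with cadmium and 13.4% with vehicle at 18 weeks, and 5.39% with cadmium and 5.66% with vehicle in culture. The widest were Tmem97 in the 18 week cadmium group, at 67.7%, and Fdps, farnesyl pyrophosphate synthase, in the 18 week vehicle group, at 50.3%. Fdps had 5 reads in the shallowest of those vehicle libraries, its exons overlap another annotated gene on the same strand over 26.7% of their bases, and its values are uncertain for that reason. Exons of 20 of the 31 genes overlap no other annotated gene, and the strand setting of the counting is not given in the sources used here.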

How the data were processed

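Islet RNA was sequenced in 30 libraries. The authors deposited unnormalized counts of reads for each Ensembl gene. Per the submitters' processing notes, cutadapt 1.13, STAR, HTSeq 0.6.1p1, DESeq2 and build mm10 were used; annotation release, strand setting and handling of multiply mapped reads are absent from the sources used here. Lengths, overlaps and symbols came from GENCODE of the same build.

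For each comparison only the libraries of the 2 groups entered edgeR 4.0.16 under R 4.3.3. Genes were kept by filterByExpr with a minimum count of 10 and a minimum total of 15, scaled by TMM, and given the quasi-likelihood test, with Benjamini-Hochberg adjustment over all genes tested and a threshold of 0.05. All 31 genes passed the filter in every comparison. Differences between settings were contrasts in a fit of all 30 libraries, whose scaling also gave the CPM. Log2 fold changes are given ± SE and levels ± SD. The script was tested on simulated data. Over 61 pairs of libraries within groups, the lowest chi-square per degree of freedom was 2.77 and 0 pairs were identical. Each library was treated as 1 sample, although this cannot show that libraries came from separate animals or cultures.

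The 31 genes and all gene lists were chosen with earlier results of these data known. Named in full are genes past the threshold or, with fewer than 3 in a cadmium comparison, the 3 of smallest p; in vehicle comparisons the 3 of smallest p in each direction; Fdft1 and Mvd at 18 weeks and the other genes given with values were chosen after those were seen. Alternatives were DESeq2 1.42.0, its size factors in edgeR, no count filter, all libraries in 1 fit, limma-voom (limma 3.58.1) with library weights, the replicate number as a block, the acinar share (entered as its log2) as a covariate, leaving out the 3 shallowest libraries at 18 weeks, and leaving out each library.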

Additional observations from a re-analysis of the deposited data

Results flagged for a closer look

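A single library stood apart from the rest of its group in 10 of 186 tests of a gene in a group of 4 to 6 libraries, by its gap to the nearest library as a share of the group's range, and chance alone flags about 1 in 20. In culture with cadmium these were Mvk in library 1 at 9.15 CPM against 7.58 to 7.91 in the others, Cyp51 in library 2 at 60.0 CPM against 55.8 to 56.7, and Dhcr7 in library 5 at 15.1 CPM against 17.4 to 18.3. With cadmium at 18 weeks Ebp, a sterol isomerase, stood at 27.8 CPM in library 3 against 21.2 to 22.9. With cadmium at 6 weeks Fads2 stood at 13.8 CPM in library 4 against 16.96 to 17.26. In the 6 week vehicle group Srebf1 was at 155 CPM in library 5 against 172 to 177, Insig1 at 112 CPM in library 3 against 88.6 to 93.9, and Elovl6 at 44.2 CPM in library 4 against 60.4 to 65.4. In the 18 week vehicle group Insig1 was at 136 CPM in library 6, the shallowest, against 187 to 208, and Acly at 1640 CPM in library 1 against 2210 to 2510.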

How the results depend on the processing

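Of the recomputed values of named genes, 458 kept their direction and side of the threshold, 5 gained the call, 20 lost it and 3 reversed. Of the recomputed counts of called genes, 258 stayed within 1.5 times and 31 moved further. The count of 1 higher gene at 18 weeks became 3 with DESeq2 (all genes 550 higher and 215 lower, against 72 and 3). With all 30 libraries in the fit it became 4 (Tmem97, Fads2, Mvd and Scd1, with all genes 1601 and 895). It became 0 with the replicate number as a block (all genes 1 and 0). With limma-voom, with the acinar share as a covariate and without the 3 shallowest libraries it was also 0 (all genes 0 and 0 each). Leaving out 1 library gave 0 to 1 (all genes 0 to 271 and 0 to 47). The acinar covariate turned Tmem97 to -0.068 and Fads2 to -0.028 at 18 weeks and Acaca to 0.055 for culture against 18 weeks. At 18 weeks the share nearly separates cadmium from vehicle libraries, so that fit cannot tell acinar share and cadmium apart. With that covariate the vehicle counts became 6 higher and 11 lower (all genes 4800 and 4225) at 18 weeks against 6 weeks, 0 higher and 0 lower (105 and 2) in culture against 6 weeks, and 0 higher and 1 lower (539 and 697) in culture against 18 weeks; the share does not overlap between those groups. For the 18 week minus 6 week effect the count of 0 became 1 with DESeq2 (all genes 662 and 723) and 2 without the shallow libraries (all genes 1394 and 1152). It was 0 to 1 leaving out 1 library (all genes 0 to 976 and 0 to 718). For culture minus 18 weeks it became 1 with DESeq2 (all genes 65 and 131) and 1 without the shallow libraries (all genes 376 and 681). It was 0 to 1 leaving out 1 library (all genes 0 to 115 and 0 to 243). The cause of these changes was not tested. Replicate numbers were not shown to pair the libraries: correlations of same-numbered libraries were -0.081 to 0.145 at 6 weeks, -0.087 to 0.274 at 18 weeks and 0.068 to 0.289 in culture. In culture all 5 cadmium libraries, but only 2 of the 5 vehicle libraries, correlated best with their own number, a hint from the data and not the design. With the replicate block 1 of the 31 genes, Scd1, was called higher in culture (log2 fold change 0.485, edgeR adjusted p = 0.00808), among 211 genes higher and 12 lower. Idi1 at 6 weeks rests on 16 to 31 reads per library and Fdps on as few as 5.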
